A study of Homo sapiens with 6 samples.

Results

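The genes described here fold, modify, import and discard proteins at the endoplasmic reticulum (ER), or signal when folding fails. They are 34 genes chosen by name, from a list of ER chaperones, disulfide enzymes, translocon and degradation genes and the sensors of the unfolded protein response, out of 59248 gene symbols in the deposited table. All 34 were in the table and all 34 passed the expression filter. RNA was measured by bulk sequencing of total RNA from the human T-cell leukemia line Jurkat, in 3 libraries labelled overexpression (PDCD1-28 OE) and 3 labelled vector. PDCD1-28, written in the labels with 28 as a superscript, is an isoform of the PD-1 receptor gene that keeps the first 28 base pairs of intron 2. The growth protocol of both groups names the cells Jurkat KO-1, with no word on what was altered in that line, and both were kept in the same serum-containing medium. The labels do not say whether each group is 1 clone or a pool, nor whether its libraries came from separate cultures, so every p-value here covers only the spread between libraries, which may be technical.

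Secreted and membrane proteins enter the ER through the Sec61 channel and are folded there by the chaperone BiP (HSPA5), by GRP94 (HSP90B1), by the lectins calreticulin and calnexin, and by protein disulfide isomerases. When unfolded proteins build up, the membrane sensors IRE1 (ERN1), ATF6 and PERK (EIF2AK3) signal to the nucleus: IRE1 splices the mRNA of XBP1, ATF6 is cut to a transcription factor, and PERK slows translation and favours ATF4. The textbook response raises chaperones and the machinery of ER-associated degradation together. In T cells these arms are known mainly from activation and differentiation, when secretion rises. Counts per gene, as used here, do not show XBP1 splicing, ATF6 cleavage or PERK activity.

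Libraries held 59911578 to 84220970 estimated counts. PDCD1 had 945, 1059 and 807 estimated counts in overexpression and 14, 18 and 15 in vector (log2 fold change 5.91 ± 0.17, SE; edgeR adjusted p = 5.67e-07). These counts cover every PDCD1 transcript, not the isoform alone. Vector replicate 2 stood apart from the other vector libraries: the median squared difference per gene in counting-noise units was 13.1 and 14.8 in its pairs and 2.82 between the other two. For the genes that changed most, the value without it stands beside the result. Of 10 T-cell markers all passed the filter, with a summed level of 2033 to 2073 CPM in overexpression and 2210 to 2384 in vector. Of these, 7 fell, CD2, CD7 and CD5 the most, TRBC1 rose, and CD3D and CD3E did not pass the test (23.4% of all genes tested fell and 22.6% rose). The 5 B-cell markers summed to 28.8 to 37.0 CPM in overexpression and 41.7 to 60.1 in vector, mostly CD79A. Summed levels of 5 myeloid and 5 epithelial markers were at most 1.81 CPM in any library. Among 6 plasma cell markers, genes of a cell type with an enlarged ER, TNFRSF17 was at 0 in all libraries and JCHAIN had at most 5 estimated counts. MZB1, an ER cochaperone that is also in that list, rose from 77.7 to 142 CPM and made most of the list's sum. The part of these marker shifts in the results was not tested. In bulk RNA, fewer cells of a type and less RNA per cell cannot be told apart.

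Chaperone and disulfide enzyme genes were mostly lower in overexpression, and ERN1, ATF6, CREB3L2, SEL1L, EDEM1 and DERL3 were higher. Of the 34 genes, 25 were called (46.1% of all genes tested), of which 19 fell and 6 rose by edgeR's quasi-likelihood test at an adjusted p under 0.05, where 23.4% of all 21055 genes tested fell and 22.6% rose. The fallen share was 55.9% and the risen share 17.6%. Most of these genes are abundant, and among the 9350 tested genes whose libraries averaged 1000 or more estimated counts 37.5% fell and 25.0% rose. Without vector replicate 2, 21 of the 34 fell and 6 rose. The median log2 fold change was -0.20 over the 34 genes and 0.02 over all genes tested. Overexpression and vector levels were fully separated in 27 of the 34 genes (58.7% of all genes tested), with 7 higher (30.1%) and 20 lower (28.6%). Shares of separated genes were not computed for the abundant genes alone.

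The counts by role were as follows. Of 5 sensor and transcription factor genes, 3 rose and 1 fell (median log2 fold change 0.30). Of 11 genes of the HSP70 and HSP90 chaperone system, 10 fell and none rose, with a median of -0.38. Of 7 lectin chaperone and disulfide enzyme genes, 5 fell and none rose, with a median of -0.27. Of 9 degradation genes, 3 rose, 1 fell and 5 did not pass the test, with a median of -0.06. Both translocon genes fell. Among the abundant genes given above, 37.5% fell and 25.0% rose. The fallen share was 90.9% in the HSP70 and HSP90 list and 71.4% in the lectin and disulfide list, both above that of abundant genes. In the degradation list 33.3% rose and 11.1% fell, so its risen share was not far from that of abundant genes. The sensor and translocon lists are too short for such shares. These are descriptions of lists, and neither the difference between roles nor that from abundant genes was tested.

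**Figure D1:**
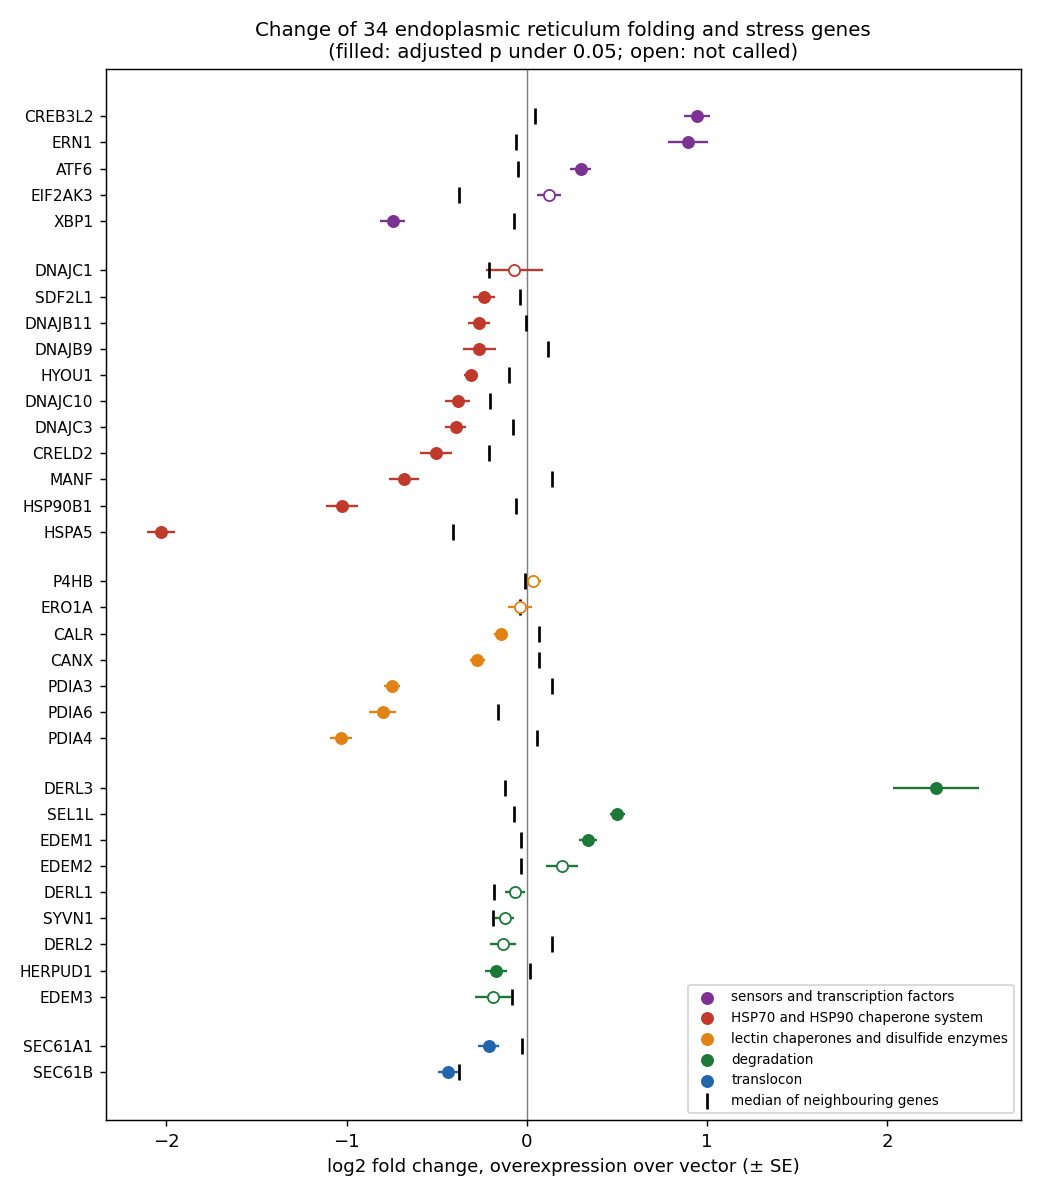
Log2 fold change (overexpression over vector, horizontal axis) of each of the 34 genes, grouped by role, with bars for the SE. Filled points passed the test and open points did not; black ticks give the median of the neighbouring genes on the chromosome. HSPA5 at -2.03 and DERL3 at 2.27 are the extremes, and no chaperone or disulfide enzyme lies clearly above 0.

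HSPA5, the gene of BiP, fell 4.08-fold. Its level was 494, 405 and 464 CPM (estimated counts relative to the TMM-scaled library total) in the vector libraries and 114, 115 and 106 CPM in the overexpression libraries. Each overexpression library thus lay far below each vector library, and vector replicate 2 was the lowest of its group. The means were 454 ± 45.1 and 111 ± 4.87 CPM (SD, n = 3 each), with a log2 fold change of -2.03 ± 0.08 (SE; edgeR adjusted p = 1.8e-06), or -2.11 without vector replicate 2. HSPA5 lies on chromosome 9 (125234853 to 125241330, minus strand, hg38). The 40 nearest expressed protein-coding genes had a median log2 fold change of -0.41 there, and 5 of the 40 lay above 0, so HSPA5 was 1.62 lower on the log2 scale than its surroundings (log2 difference -1.62). Whether the shift of this stretch of chromosome 9 has a part in the fall was not tested.

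HSP90B1 encodes GRP94, the HSP90 paralog of the ER. Its level was 558, 449 and 572 CPM in vector and 255, 270 and 250 CPM in overexpression, again with no overlap. The log2 fold change was -1.03 ± 0.09 (SE; edgeR adjusted p = 6.13e-05), or -1.14 without vector replicate 2. Its neighbours on chromosome 12 had a median near 0 (-0.06). HSPA5, HSP90B1 and PDIA4 were the 3 genes among the 34 that fell at least 2-fold. Of all genes tested 6.22% did so, and of the abundant genes given above 3.26%.

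The remaining members of the HSP70 and HSP90 system changed less. MANF, a small ER-stress-induced secreted factor that binds BiP, had 62.3, 54.6 and 62.5 CPM in vector and 34.4, 40.3 and 37.1 in overexpression (log2 fold change -0.68 ± 0.08, SE; edgeR adjusted p = 0.000287; -0.75 without vector replicate 2). CRELD2, an ER protein with disulfide isomerase activity and likewise induced by ER stress, had 41.0, 36.1 and 44.5 CPM in vector against 30.4, 28.3 and 26.8. Neither gene's groups overlapped. The log2 fold change of CRELD2 was -0.51 ± 0.09 (edgeR adjusted p = 0.00243), or -0.59 without vector replicate 2.

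HYOU1, the large HSP70-like exchange factor of BiP, was among the steadiest genes. It stood at 374, 381 and 367 CPM in vector and 300.3, 302 and 303 in overexpression, a log2 fold change of -0.31 ± 0.04 (edgeR adjusted p = 0.000388). A fall of 1.24-fold was thus resolved here because the libraries of each group lay so close together.

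The J-domain proteins, which hand clients to BiP and start its ATP hydrolysis, fell a little or did not pass. DNAJC3, also known as an inhibitor of PERK, fell with a log2 fold change of -0.40 ± 0.06 and DNAJC10, a J protein that also reduces disulfides, with -0.38 ± 0.07. DNAJB11 and DNAJB9 stood at -0.27 ± 0.06 and -0.27 ± 0.09 (edgeR adjusted p = 0.00748 and 0.0433). The DNAJB9 call, near the threshold, was lost when overexpression replicate 1, 2 or 3 or vector replicate 1 or 3 was left out, with adjusted p from 0.0599 to 0.123. Upper-quartile scaling, the fit with no filter and the replicate block also lost it. DNAJC1, a membrane J protein, had 21.1, 14.1 and 20.04 CPM in vector and 16.4, 19.4 and 16.7 in overexpression. Its groups overlapped, vector replicate 2 being the lowest library of all 6 (log2 fold change -0.07 ± 0.16, edgeR adjusted p = 0.742; -0.24 and 0.0698 without that library). SDF2L1, a partner of DNAJB11, fell with -0.24 ± 0.06 (edgeR adjusted p = 0.0144), and its call was lost without overexpression replicate 1 or 2 (adjusted p = 0.0504 and 0.061).

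Among the disulfide enzymes 3 isomerase genes fell and 2 genes kept their level. PDIA4, the isomerase also named ERp72, had 227, 199 and 221 CPM in vector and 103, 108 and 106 in overexpression, a log2 fold change of -1.03 ± 0.06 (SE; edgeR adjusted p = 9.03e-06). PDIA6, an isomerase known to act on IRE1, had 185, 169 and 164 CPM against 97.2, 109 and 92.0 (-0.80 ± 0.07). PDIA3, the isomerase that works with the lectin chaperones and helps load MHC class I, had 165, 159 and 167 CPM against 96.4, 98.4 and 97.3 (-0.75 ± 0.04). In all 3 genes every overexpression library lay below every vector library. Without vector replicate 2 the log2 fold changes of PDIA4, PDIA6 and PDIA3 were -1.10, -0.82 and -0.78.

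P4HB, the archetypal disulfide isomerase, did not follow them. Its level was 361, 370 and 365 CPM in vector and 367, 371 and 386 in overexpression, with overlapping groups and a log2 fold change of 0.04 ± 0.04 (edgeR adjusted p = 0.499). ERO1A, the oxidase that recharges P4HB, had 114, 105.2 and 117 CPM in vector against 118, 105.1 and 104.8 (-0.04 ± 0.07, edgeR adjusted p = 0.683). In both genes the estimate was no larger than its SE.

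The lectin chaperones fell slightly. CALR, the gene of calreticulin and the most abundant of the 34, stood at 1413, 1450 and 1411 CPM in vector and 1257, 1306 and 1298 in overexpression (log2 fold change -0.15 ± 0.04, edgeR adjusted p = 0.0121). Its groups did not overlap, but the call was lost without overexpression replicate 1 (adjusted p = 0.0628) and with upper-quartile scaling (0.0788). CANX, the membrane-bound calnexin, had 368, 362 and 379 CPM against 313, 304 and 299 (-0.27 ± 0.04, edgeR adjusted p = 0.00104).

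**Figure D2:**
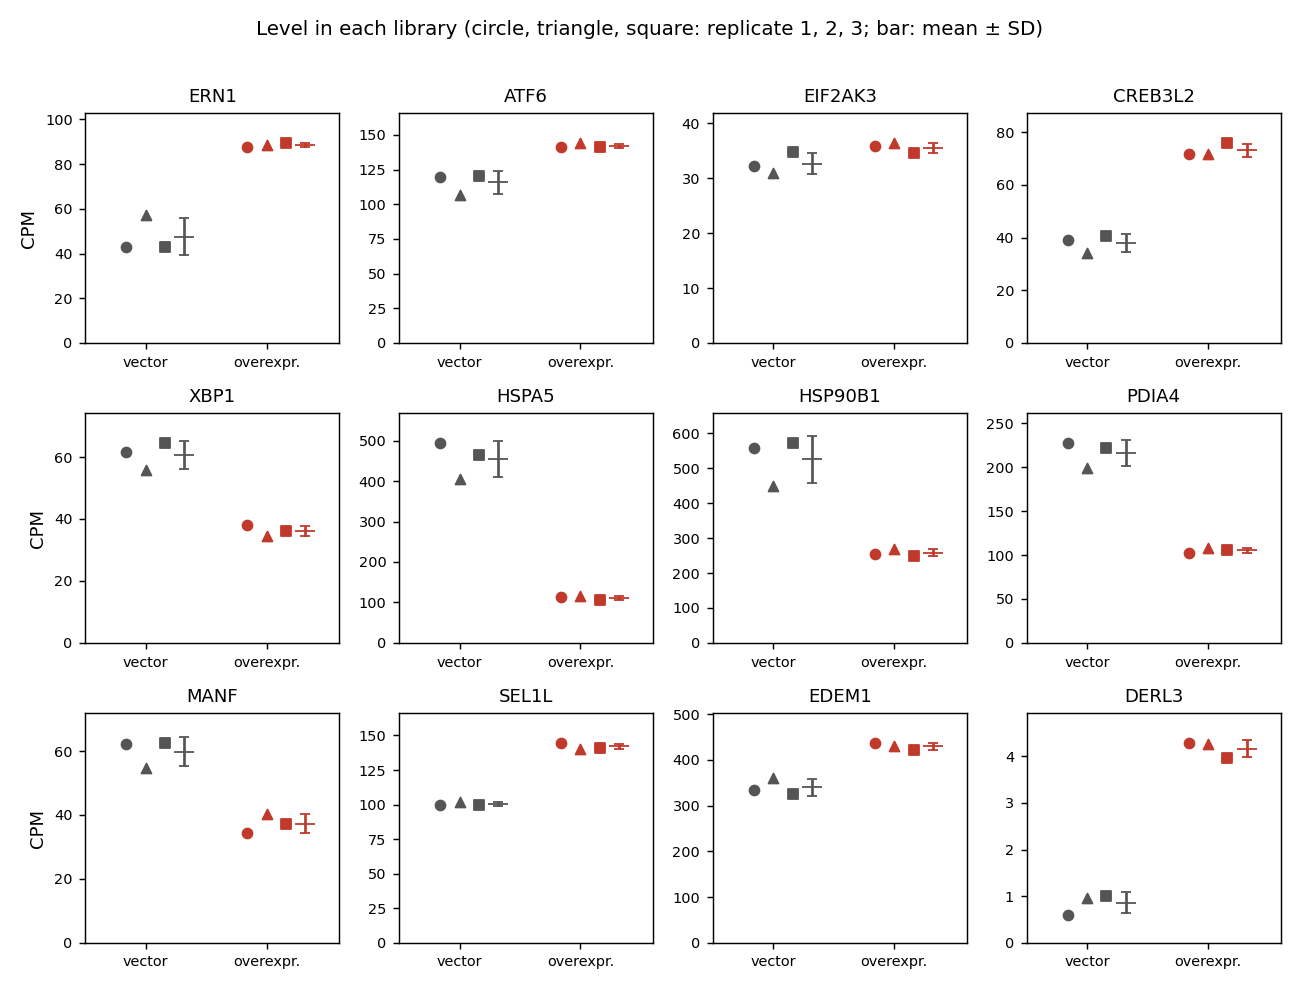
CPM (vertical axis, from 0) of 12 of the genes in each of the 6 libraries, with the mean ± SD beside each group of 3. The overexpression libraries lie close together. Vector replicate 2, the triangle, is the lowest vector library for HSPA5, HSP90B1, PDIA4, MANF and XBP1 and the highest for ERN1, SEL1L and EDEM1. In these genes it lies toward overexpression. It is also the lowest vector library for ATF6, EIF2AK3 and CREB3L2, where it lies away from overexpression.

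Of the 3 sensor genes, ERN1 and ATF6 rose and EIF2AK3 did not pass the test. ERN1, the gene of the kinase and RNase IRE1, had 42.9, 57.2 and 42.7 CPM in vector and 87.8, 88.4 and 89.3 in overexpression. All overexpression libraries were above all vector libraries, and vector replicate 2 was the highest of its group. The log2 fold change was 0.89 ± 0.11 (SE; edgeR adjusted p = 0.000341), or 1.04 without vector replicate 2. ERN1 lies on chromosome 17 (64039142 to 64130819, minus strand, hg38), where its neighbours had a median of -0.06.

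ATF6, the sensor that is cut in the Golgi to a transcription factor, rose modestly. It had 120, 106 and 121 CPM in vector and 141, 144 and 141 in overexpression (log2 fold change 0.30 ± 0.06, edgeR adjusted p = 0.00354; 0.23 without vector replicate 2). EIF2AK3, the gene of PERK, did not pass the test: it had 32.3, 30.9 and 34.7 CPM against 35.8, 36.4 and 34.6, and the groups overlapped (0.12 ± 0.07, edgeR adjusted p = 0.164). It lies on chromosome 2 in a stretch whose 40 nearest expressed genes had a median of -0.38, with 7 of the 40 above 0.

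The transcription factor genes split. XBP1, the target of IRE1's splicing, had 61.6, 55.8 and 64.5 CPM in vector and 37.9, 34.6 and 35.96 in overexpression, with no overlap. Its log2 fold change was -0.74 ± 0.07 (SE; edgeR adjusted p = 8.97e-05), or -0.81 without vector replicate 2. CREB3L2, a membrane-bound factor related to ATF6 that acts on secretory genes, had 39.2, 34.2 and 40.6 CPM in vector and 71.7, 71.8 and 75.8 in overexpression (0.94 ± 0.07, edgeR adjusted p = 3.4e-05; 0.86 without that library). So ERN1 and XBP1, which act in sequence, changed in opposite directions at the RNA level.

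BiP protein is known to hold the sensors inactive by binding them, so the levels of their transcripts were set side by side per kilobase of exon. HSPA5 stood at 116 CPM per kb in vector and 28.5 in overexpression, and ERN1 at 4.38 and 8.15. The ratio of HSPA5 to ERN1 on this scale was 31.98, 19.7 and 30.2 in the vector libraries and 3.60, 3.61 and 3.29 in the overexpression libraries. The ratio to ATF6 was 7.92 ± 0.341 in vector and 1.58 ± 0.0612 in overexpression, and that to EIF2AK3 was 19.4 ± 1.65 and 4.35 ± 0.0848 (SD, n = 3). Each ratio was lower in every overexpression library than in every vector library. These ratios are given without a test and rest on the same HSPA5 values as above, so their separation adds little to the fall of HSPA5. BiP and sensor proteins were not measured.

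**Figure D3:**
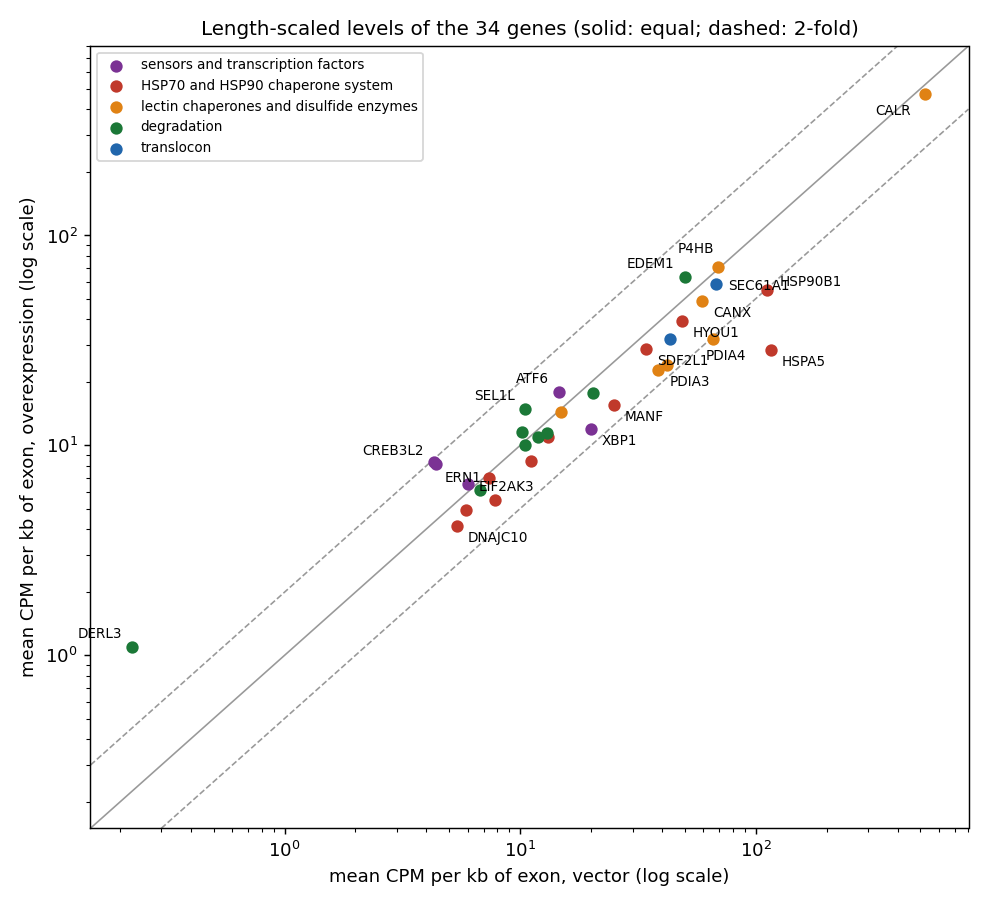
Mean CPM per kb of exon in vector (horizontal) and overexpression (vertical) for the 34 genes, both on log axes, with lines for equality and for a 2-fold difference. CALR is highest in both groups at 525 and 474, HSPA5 lies farthest below the lower dashed line, and DERL3 is the lowest gene at 0.226 and 1.10.

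On that scale CALR, HSPA5 and HSP90B1 led in vector, at 525, 116 and 112 CPM per kb. In overexpression CALR was followed by P4HB and EDEM1, at 70.7 and 63.5, and HSPA5 at 28.5 lay below SEC61B at 32.1. DERL3 was the lowest in both groups. Lengths are the union of all annotated exons, used in these cells or not.

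Genes of ER-associated degradation, which recognise misfolded proteins, pull them to the cytosol and mark them with ubiquitin, moved both ways. SEL1L, the scaffold of the HRD1 ligase, had 99.6, 102 and 99.9 CPM in vector and 144, 141 and 141 in overexpression (log2 fold change 0.50 ± 0.04, SE; edgeR adjusted p = 4.91e-05; 0.50 without vector replicate 2). SYVN1, the HRD1 ligase itself, had 63.9, 68.9 and 64.4 CPM against 61.9, 58.3 and 61.0 (-0.12 ± 0.05, edgeR adjusted p = 0.0949). The scaffold thus passed the test upward, while the ligase did not pass and had a negative estimate.

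EDEM1, EDEM2 and EDEM3 act on the mannose residues of misfolded glycoproteins. EDEM1 rose, from 333, 361 and 326 to 436, 431 and 420.4 CPM (log2 fold change 0.34 ± 0.05, edgeR adjusted p = 0.000906; 0.37 without vector replicate 2). EDEM2 had 21.2, 17.9 and 19.2 CPM against 21.9, 22.8 and 22.1 (0.19 ± 0.09, edgeR adjusted p = 0.104). EDEM3 had 165, 132 and 178 CPM in vector, where replicate 2 was the lowest, and 143, 135 and 139 in overexpression. Its log2 fold change was -0.19 ± 0.10 (edgeR adjusted p = 0.155), and -0.31 without vector replicate 2 (adjusted p = 0.000315).

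HERPUD1, a stress-induced adaptor of the HRD1 complex, fell with a log2 fold change of -0.17 ± 0.06 (edgeR adjusted p = 0.0425). That call was lost without overexpression replicate 1, 2 or 3 or vector replicate 1, with adjusted p from 0.0775 to 0.141, and the replicate block gave 0.0587. Upper-quartile scaling and the fit with no filter also lost it. The derlins form the channel through which proteins leave the ER. DERL1 and DERL2 did not pass, at -0.06 ± 0.06 and -0.13 ± 0.07 (edgeR adjusted p = 0.375 and 0.178), and DERL2 passed without vector replicate 2 (-0.18, adjusted p = 0.0462).

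DERL3, the derlin known from secretory cells, had the largest rise of the 34 genes from the lowest level, and was the one gene among them to rise at least 2-fold (8.39% of all genes tested). It had 35, 78 and 68 estimated counts in vector and 278, 317 and 253 in overexpression, or 0.604, 0.967 and 1.01 against 4.28, 4.26 and 3.96 CPM. The log2 fold change was 2.27 ± 0.24 (edgeR adjusted p = 0.000149), or 2.35 without vector replicate 2. Of its annotated exon bases, 77.0% also lie in exons of SMARCB1 on the other strand, and the strand setting of the counting is not given in the sources used here, so reads of the pair may not have been told apart. SMARCB1, a chromatin remodelling subunit, moved the opposite way, from 181 ± 10.9 to 114 ± 2.58 CPM (log2 fold change -0.67 ± 0.05, edgeR adjusted p = 4.56e-05). Of the other genes, EIF2AK3, PDIA3 and PDIA6 shared 10% or more of their exon bases with another annotated gene.

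The translocon genes, which encode subunits of the Sec61 channel, both fell. SEC61B had 53.1, 53.6 and 48.2 CPM in vector and 38.3, 37.7 and 38.5 in overexpression (log2 fold change -0.44 ± 0.06, edgeR adjusted p = 0.000619). It lies on chromosome 9 in another stretch with a negative median, -0.38 over 40 neighbours, so it differed from its surroundings by only -0.06. SEC61A1, the pore subunit, had 304, 345 and 304 CPM against 265, 278 and 280 (-0.21 ± 0.06, edgeR adjusted p = 0.0196). Its call was lost without overexpression replicate 1, 2 or 3 (adjusted p = 0.0853, 0.0597 and 0.052) and with upper-quartile scaling. For 28 of the 34 genes the neighbours' median lay within 0.2 of 0. All 25 called genes kept their sign once that median was subtracted, SEC61B with only the -0.06 given above. With most medians so near 0 a change of sign was unlikely from the start, so this count says little about shared shifts.

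The promoters of classical target genes carry the ER stress element (ERSE), in which CCAAT, bound by NF-Y, stands 9 bases from CCACG, bound by ATF6 or XBP1. The exact sequence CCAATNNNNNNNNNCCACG was searched on both strands in the 250 bases before each start in RefSeq's promoters (GRCh38.p14). It was found in 0.074% of 35116 windows and, by gene, in 0.0916% of 27305 symbols. Of the 34 genes described here 30 have a window, and 7 of these 30 hold the element. DNAJC1, PDIA3, DERL1 and DERL3 had none. The whole HSPA5 window is shown because this gene fell the most, at chr9:125241344-125241593 on the minus strand, with both conserved blocks of the element in capitals:
HSPA5: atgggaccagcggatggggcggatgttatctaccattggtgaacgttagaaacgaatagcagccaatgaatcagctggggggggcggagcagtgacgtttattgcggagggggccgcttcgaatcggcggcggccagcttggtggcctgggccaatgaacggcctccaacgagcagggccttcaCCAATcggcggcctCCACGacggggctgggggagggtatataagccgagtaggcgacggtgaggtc

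The element ends 47 bases before the start of HSPA5, and 3 further CCAAT matches lie upstream of it. The elements of the other genes are shown to let their spacers and the blocks around them be compared, each written along its own strand with the blocks in capitals:
HSP90B1, 175 bases before the start: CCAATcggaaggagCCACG
HSP90B1, 70 bases before the start: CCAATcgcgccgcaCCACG
PDIA6: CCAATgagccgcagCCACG
XBP1: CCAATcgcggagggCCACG
CRELD2: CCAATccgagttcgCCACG
CANX: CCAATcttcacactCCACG
CALR: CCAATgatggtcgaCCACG

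All 7 genes with the element fell; their median log2 fold change was -0.74, with a range from -2.03 for HSPA5 to -0.15 for CALR. Of the 23 genes with a window and no exact match, 11 fell and 5 rose, with a median of -0.17. PDIA4, which fell 2.05-fold, is among those with no exact match in this window, as are MANF, ERN1, SEL1L and EDEM1. A match is only a run of letters and does not show that a factor binds.

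A second element, ERSE-II, in which ATTGG and CCACG stand 1 base apart, occurs in 0.0513% of windows. HYOU1 has it 174 and 68 bases before its start, SDF2L1 177 bases before and HERPUD1 106 bases before, and these genes fell by 0.31, 0.24 and 0.17 on the log2 scale:
HYOU1: ATTGGaCCACG
SDF2L1: ATTGGtCCACG
HERPUD1: ATTGGgCCACG

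Of the 10 genes with either element, 10 fell, and of the 20 with a window and neither, 8 fell and 5 rose. Of these 10, all but XBP1 and HERPUD1 belong to the chaperone and disulfide enzyme lists, in which most genes fell. In those lists DNAJB9, DNAJB11, DNAJC3, DNAJC10, MANF and PDIA4, with a window and neither element, also fell, while P4HB and ERO1A were not called. Element and role therefore overlap, and their parts were not tested. Of 10 other tested genes with an ERSE-II, 4 rose and 1 fell (median log2 fold change 0.22). Among 12133 tested genes with a window and no ERSE-II, 25% rose and 29.4% fell. Of 10 other tested genes with an ERSE, 4 rose and 1 fell (median log2 fold change 0.26). Among these, NLRP4 and SYNPO averaged only 13.7 and 27.5 estimated counts, and neither passed the test. Over the 12129 tested genes that have a window but no ERSE 25% rose and 29.3% fell, with a median of -0.03. SERP1, which encodes a stress-associated protein that protects new membrane proteins at the translocon, rose from 97.6 ± 11.1 to 263 ± 2.96 CPM (SD, n = 3; log2 fold change 1.43 ± 0.08, edgeR adjusted p = 6.89e-06). It shares its element with EIF2A, another of the 4 risen genes (log2 fold change 0.29), on the other side of the same promoter, at chr3:150546710-150546728:
SERP1: CCAATtcgctgtctCCACG

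CRELD2 likewise shares its element with ALG12, a mannosyltransferase gene that starts in the other direction. ALG12 did not pass the test (log2 fold change -0.17, edgeR adjusted p = 0.0736), where CRELD2 fell by 0.51. These differences between genes that share an element were not tested.

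**Figure D4:**
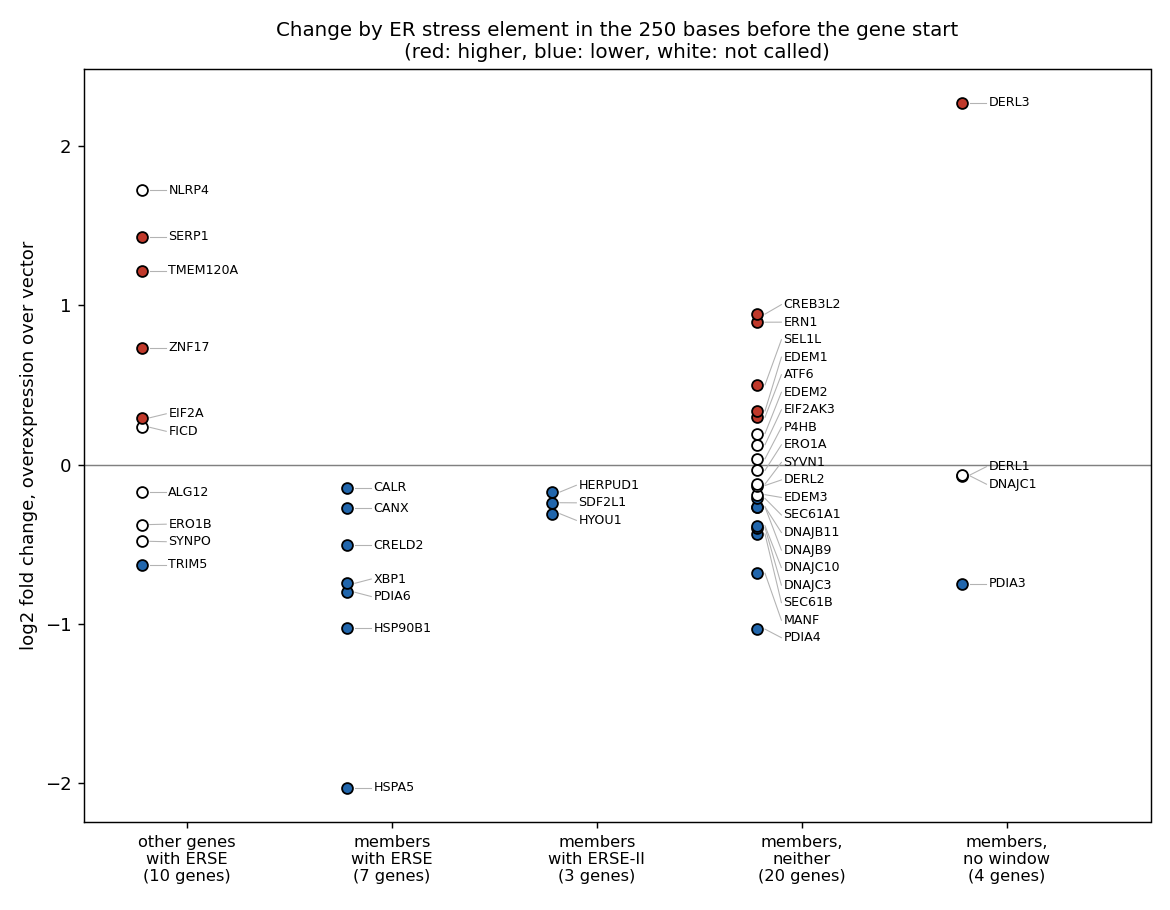
Log2 fold change (vertical axis) of genes grouped by exact matches to the ER stress elements within 250 bases before the start. The 7 genes with an ERSE and the 3 with an ERSE-II among the 34 all lie below 0, while 10 other genes with an ERSE lie on both sides. Other genes with an ERSE-II are not plotted.

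Other genes of the pathway, from wider lists by function, showed a mixed picture. Of 31 other folding enzyme and cochaperone genes tested, 12 fell and 9 rose (38.7% and 29.03%; median log2 fold change -0.20), against 37.5% and 25.0% of the abundant genes given above. ERP29, a disulfide isomerase-like ER protein, and QSOX1, a sulfhydryl oxidase, rose by 0.58 ± 0.05 and 0.51 ± 0.06, and FKBP7, an ER prolyl isomerase, and MOGS, the first glucosidase of glycan trimming, fell by 0.71 and 0.33 on the log2 scale. Of 32 other translocation and glycosylation genes, 15 fell and 5 rose (46.9% and 15.6%, against 37.5% and 25.0% of abundant genes; median -0.11). RPN2, a subunit of oligosaccharyltransferase, fell from 263 ± 10.3 to 144 ± 2.58 CPM and SRP9, of the signal recognition particle, from 379.5 ± 6.86 to 214 ± 11.4 CPM. Besides SERP1, SEC11C, a catalytic subunit of signal peptidase, rose by 0.39 ± 0.07.

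Of 23 other degradation genes tested, 7 fell and 8 rose (30.4% and 34.8%, against 37.5% and 25.0% of abundant genes), with a median of -0.0045. VCP, the ATPase that extracts proteins from the ER membrane, fell from 532 ± 32.6 to 265 ± 1.25 CPM (SD, n = 3; log2 fold change -1.002 ± 0.05, edgeR adjusted p = 5.97e-06). UBE2G2, a ubiquitin-conjugating enzyme of the pathway, fell by 0.56 on the log2 scale. NGLY1, which strips glycans from extracted proteins, and RHBDD1, a rhomboid protease of the ER, rose by 0.46 ± 0.06 and 0.53 ± 0.07. Of 11 ER calcium genes, 3 fell and 2 rose (27.3% and 18.2%), both shares below the 37.5% and 25.0% of abundant genes. Among them, RCN1 and the calcium pump gene ATP2A2 fell by 1.12 and 0.46, and NUCB2 and ITPR3 rose by 0.57 ± 0.06 and 0.29 ± 0.06.

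Among 23 other signal genes tested, 9 rose and 8 fell (39.1% and 34.8%, against 25.0% and 37.5% of abundant genes; median -0.07). TRIB3, a pseudokinase gene known as a target of ATF4, rose from 43.9 ± 5.02 to 224 ± 2.67 CPM, and ATF6B, the paralog of ATF6, rose from 88.8 ± 0.220 to 132 ± 6.44 CPM. ATF4 itself rose by 0.51 ± 0.06 on the log2 scale, and CHAC1, DDIT3, ATF3 and PPP1R15A of the same list by 2.63, 1.26, 1.13 and 0.86. PPP1R15B and EIF2S1 fell (log2 fold change -0.38 and -0.45). ATF4 is also reached by other kinases of the integrated stress response, which these counts do not distinguish. MAP3K5 and TRAF2, which link IRE1 to the JNK kinases, fell by 1.38 and 0.55 on the log2 scale. The subunit genes NFYA, NFYB and NFYC, whose product binds the CCAAT block of the element, fell by 0.14, 0.35 and 0.21 on the log2 scale.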

How the data were processed

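The submitters' processing notes name build hg38 and the tools STAR 2.7.10a, fastp 0.23.2, DESeq2 and StringTie. The annotation and strand setting of the counting are not given in the sources used here. The authors deposited 1 table of expected counts (whole-number estimated counts) per gene symbol and library. In these values 1 read pair may add about 4, which was not established here, and no counting interval is given. Genes passing edgeR 4.0.16's default filter (R 4.3.3) were scaled by TMM and compared, with no covariate, by its quasi-likelihood F test and Benjamini-Hochberg adjustment over 21055 genes; SEs come from the same F statistic. The fit was also run on counts simulated from its own dispersions, with a far smaller share of changed genes than was called here. That run therefore does not test the scaling or the error rate in these data. Genes and lists were chosen with earlier results of these data known. The rule named all 34 genes, PDCD1, and at most 2 risen and 2 fallen genes of smallest adjusted p per pathway list; other genes were named after their values were seen. Positions, neighbours (20 on each side, mean of at least 100 estimated counts) and exon lengths came from GENCODE 29, promoters from RefSeq (GRCh38.p14). A planned look at protein sequences was not made. Figures used matplotlib 3.10.9. Alternatives were DESeq2 1.42.0, limma-voom (limma 3.58.1), other scaling factors, no filter or a stricter one (means of 1 CPM and 50 estimated counts or more), the replicate block, each library left out and, chosen after seeing the data, division by 4.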

Additional observations from a re-analysis of the deposited data

How the results depend on the processing

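Over 14 alternatives, the number of risen genes among the 34 stayed between 6 and 7 and that of fallen genes between 14 and 21, against 6 and 19. Leaving out 1 library gave 14 to 21 fallen genes, 6 risen genes and 7916 to 10868 called genes in all, against 9705. Of 476 recomputed changes of single genes, 448 kept direction and side of the threshold, 23 lost the call, 3 gained it and 2 changed sign, both of genes that were not called: DNAJC1 was 0.031 without vector replicate 1 (-0.24 to 0.031 over the single libraries left out), and ERO1A was 0.012 with upper-quartile factors. In 26 of the 34 genes no alternative changed the call. Upper-quartile factors moved the median of the lectin and disulfide genes from -0.27 to -0.23 and left 15 fallen genes; EDEM2 was then called (0.24, adjusted p = 0.0447). With the replicate block, 17 of the 34 fell, 6 rose and 8690 genes were called in all, DNAJB9 and HERPUD1 losing their calls. Same-numbered libraries share only a number: their deviations correlated at -0.04, 0.02 and 0.05 over 13973 genes. The depth behind DERL3 in vector, 35 to 78 estimated counts, limits the size of its rise more than in any other of the 34.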
